A study of Homo sapiens with 6 samples.

Results

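Interferon-stimulated antiviral effector genes are the genes whose protein products carry out the interferon response, as opposed to the sensors, receptors and transcription factors that switch it on. A list of 42 such genes was taken by symbol from a table of 58174 gene IDs. The list holds 10 roles: dynamin-like and guanylate-binding GTPases, the oligoadenylate synthetase family, IFIT proteins, membrane restriction factors, IFI proteins, the ISG15 conjugation system, nucleotide and RNA enzymes, SAMD9 paralogs, ADP-ribosyltransferases with DTX3L, and other effectors. Of the 42 genes, 40 had a mean of at least 1 CPM (counts of a gene relative to the effective size of its library) and are called measured below, as were 14524 genes of the whole table. IFI44L was at 0.217 CPM in KO1, 0.643 CPM in KO2 and 1.0001 CPM in NC. CMPK2 had 0 counts in KO1, 0 counts in KO2 and 2 counts in NC. Those 2 genes lay under the limit, and the measured genes nearest to it were TRIM22, with a mean of 2.08 CPM, and RSAD2, with a mean of 2.32 CPM.

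RNA was sequenced from MDA-MB-231, an established human triple-negative breast cancer line, in 3 groups of 2 samples: KO1 and KO2, both with the genotype label of an ARID1A knockout, and NC, labelled as control. ARID1A encodes a DNA-binding subunit of the BAF (SWI/SNF) chromatin remodelling complex. The labels name no interferon treatment or infection, and the sources used here do not say how the knockouts were made, nor whether KO1 and KO2 are single clones. The deposited table has 1 column of estimated counts per group, so no spread between cultures could be computed, and each interval given here covers counting error only.

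Column totals lay between 25801499 and 26798753 counts. ARID1A itself was at 45.7 CPM in KO1, 83.9 CPM in KO2 and 77.3 CPM in NC, so the column labelled KO2 was not below NC at the RNA level. On the leading ARID1A transcript alone the log2 fold in KO1 was 1.40, against −0.76 for the whole gene. The oestrogen receptor gene ESR1 had 0 counts in KO1, 14 in KO2 and 0 in NC, the progesterone receptor gene PGR had 0 in every column, and the mesenchymal filament gene VIM stood between 2925 and 4719 CPM. The receptor gene ERBB2 was detected, at 28.0 CPM in KO1, 52.4 CPM in KO2 and 75.7 CPM in NC. Leukocytes also express the effector genes. Their marker list (9 genes) summed to 19.9 CPM in KO1, 57.7 CPM in KO2 and 50.3 CPM in NC, most of it CD68, and the B cell marker MS4A1 was at 0 in every column. A stroma marker list (5 genes) summed to 1.22 CPM in KO1, 8.68 CPM in KO2 and 15.6 CPM in NC. Of it PDGFRB was at 0.435 CPM in KO1, 2.39 CPM in KO2 and 10.8 CPM in NC, PECAM1 at 0.609 CPM in KO1, 5.93 CPM in KO2 and 3.36 CPM in NC, and DCN had 0 counts in every column. Genes of the mitochondrial genome took 20.5% of counts in KO1, 16.9% in KO2 and 12.8% in NC. The part of these differences in the results below was not tested.

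Type I and type III interferons bind receptors whose associated kinases activate the factor ISGF3, of which STAT2 and IRF9 are parts. ISGF3 binds the interferon-stimulated response element (ISRE) in promoters, whereas interferon gamma acts mainly through a different element named GAS. Many tumour lines keep such genes on at a low tonic level without added interferon.

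Promoter windows of 300 bases, 250 before and 50 after a start site, were available from RefSeq (GRCh38.p14) for 34 of the 42 genes. The windows below are shown because they carry the element the group is known for, or because the transcript that dominated in a column starts in them. Each is written 5′ to 3′ on the gene's own strand, and capitals mark every match to the ISRE core on either strand, which is GAAA, any 2 bases and GAAA, and reads TTTC, any 2 bases and TTTC when it lies on the other strand. ISG15 (chr1:1013247-1013546, plus strand) has a pair of overlapping matches, and IFIT3 (chr10:89327747-89328046, plus strand) a pair of separate ones.
ISG15: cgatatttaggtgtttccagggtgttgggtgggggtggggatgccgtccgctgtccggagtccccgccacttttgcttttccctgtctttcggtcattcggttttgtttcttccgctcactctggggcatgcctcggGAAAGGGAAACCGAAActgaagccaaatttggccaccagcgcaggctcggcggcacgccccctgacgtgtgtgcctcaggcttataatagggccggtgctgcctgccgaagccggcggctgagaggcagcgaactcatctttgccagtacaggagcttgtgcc
IFIT3: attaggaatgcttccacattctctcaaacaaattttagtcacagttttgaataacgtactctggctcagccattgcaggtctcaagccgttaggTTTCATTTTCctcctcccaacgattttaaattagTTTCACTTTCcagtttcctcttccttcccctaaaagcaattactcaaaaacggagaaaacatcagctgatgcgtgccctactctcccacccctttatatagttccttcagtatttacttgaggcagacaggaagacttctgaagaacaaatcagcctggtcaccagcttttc
MX1 has a window with a match just after the start site (chr21:41420308-41420607, plus strand) and one farther along with none to these letters (chr21:41425989-41426288, plus strand). That farther window, named inner below, does hold tttcgtttc and tttcatttc, with 1 base between, which these letters cannot match. Another MX1 window (chr21:41431800-41432099, plus strand), with 1 match, is not printed.
MX1 upstream window: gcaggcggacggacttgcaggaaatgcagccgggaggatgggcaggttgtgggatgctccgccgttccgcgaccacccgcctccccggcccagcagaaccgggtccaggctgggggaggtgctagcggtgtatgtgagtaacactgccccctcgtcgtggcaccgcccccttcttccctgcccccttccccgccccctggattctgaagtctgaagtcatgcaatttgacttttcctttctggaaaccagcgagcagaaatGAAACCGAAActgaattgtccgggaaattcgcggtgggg
MX1 inner window: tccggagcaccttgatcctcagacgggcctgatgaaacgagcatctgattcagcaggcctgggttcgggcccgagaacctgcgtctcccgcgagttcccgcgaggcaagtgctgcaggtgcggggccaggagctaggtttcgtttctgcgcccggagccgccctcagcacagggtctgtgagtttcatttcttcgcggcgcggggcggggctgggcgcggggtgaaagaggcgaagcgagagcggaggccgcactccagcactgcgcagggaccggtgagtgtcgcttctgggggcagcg
IFITM1 (chr11:313790-314089, plus strand) has 2 matches, 1 of them across its start site.
IFITM1: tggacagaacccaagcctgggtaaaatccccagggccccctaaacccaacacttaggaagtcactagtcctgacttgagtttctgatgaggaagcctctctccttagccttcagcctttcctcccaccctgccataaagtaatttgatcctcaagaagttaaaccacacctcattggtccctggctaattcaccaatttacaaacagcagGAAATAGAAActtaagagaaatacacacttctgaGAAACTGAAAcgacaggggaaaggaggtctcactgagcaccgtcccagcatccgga
DTX3L (chr3:122564088-122564387, plus strand) and PARP9 (chr3:122564251-122564550, minus strand) are divergent neighbours whose windows overlap and hold the same match, at chr3:122564332-122564341.
DTX3L: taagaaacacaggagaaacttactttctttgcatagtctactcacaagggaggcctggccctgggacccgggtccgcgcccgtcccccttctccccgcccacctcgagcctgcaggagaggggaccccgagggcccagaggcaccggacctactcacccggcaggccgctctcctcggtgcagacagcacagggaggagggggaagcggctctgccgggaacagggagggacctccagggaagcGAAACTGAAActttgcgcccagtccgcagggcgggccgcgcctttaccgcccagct
PARP9: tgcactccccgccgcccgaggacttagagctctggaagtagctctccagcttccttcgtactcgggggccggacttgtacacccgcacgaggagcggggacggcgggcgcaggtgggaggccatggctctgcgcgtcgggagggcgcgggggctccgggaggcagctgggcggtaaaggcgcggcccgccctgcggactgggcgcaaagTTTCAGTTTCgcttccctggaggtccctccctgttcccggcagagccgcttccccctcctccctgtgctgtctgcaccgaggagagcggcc
SAMD9 (chr7:93117930-93118229, minus strand) has 1 match, and OAS1 (chr12:112906712-112907011, plus strand) has no match to these letters.
SAMD9: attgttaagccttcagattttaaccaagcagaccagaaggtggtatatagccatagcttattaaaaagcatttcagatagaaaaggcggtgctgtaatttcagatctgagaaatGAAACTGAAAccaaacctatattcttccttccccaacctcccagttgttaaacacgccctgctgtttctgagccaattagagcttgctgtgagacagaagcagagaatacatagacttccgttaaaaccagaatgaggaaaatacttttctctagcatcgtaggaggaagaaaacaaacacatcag
OAS1: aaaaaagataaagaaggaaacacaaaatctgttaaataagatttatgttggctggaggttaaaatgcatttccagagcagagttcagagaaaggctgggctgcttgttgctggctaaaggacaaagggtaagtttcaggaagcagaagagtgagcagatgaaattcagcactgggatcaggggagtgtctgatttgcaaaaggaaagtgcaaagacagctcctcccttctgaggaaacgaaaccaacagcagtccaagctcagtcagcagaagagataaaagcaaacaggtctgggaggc

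The effector genes were mostly at lower levels in both knockout columns than in NC. KO1 and KO2 were each compared with NC by a size rule that has no p-value: a gene was counted as lower or higher when its log2 fold, with 2 counts added, was at least 1 in size and its exact 95% counting interval did not include a fold of 1. In KO1, 17 of the 40 measured genes (42.5%) were lower by this rule, against 17.4% of all measured genes, and 1 was higher (2.5%), against 15.4%. In KO2, 13 (32.5%) were lower, against 9.98%, and 1 was higher (2.5%), against 11.0%. Of the same 40 genes, 34 (85.0%) had a log2 fold below 0 in KO1, against 50.5% of all measured genes, and 30 (75.0%) in KO2, against 50.4%. The median log2 fold was −0.81 in KO1 and −0.70 in KO2, beside −0.01 and −0.00 over all measured genes. In a bulk sample, fewer cells with an active gene and less of its RNA in each cell cannot be told apart.

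Taking KO1 and KO2 together, 28 of the 40 genes (70.0%) were below NC in both columns, against 34.9% of all measured genes, and 4 (10%) were above NC in both, against 34.1%. The 9 genes lower by the size rule in both columns were MX1, OAS1, OAS2, IFIT3, IFI44, HERC6, USP18, RSAD2 and EPSTI1, which is 22.5% against 5.65% of all measured genes. No gene of the list was higher in both, against 6.22%. Since both comparisons use the same NC column, a high or low NC value moves a gene the same way in each. A further 8 genes passed as lower in KO1 and not in KO2 (20%, against 11.8% of all measured genes): GBP2, OAS3, IFITM2, IFITM3, HERC5, PARP9, PARP14 and TRIM22. Another 4 passed as lower in KO2 and not in KO1 (10%, against 4.32%): OASL, IFI27, IFI35 and ISG15. Some lay just short of the rule in the other column, as IFITM3 and IFITM2 did in KO2, with log2 folds of −0.90 and −0.86, and ISG15 in KO1, with −0.83.

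**Figure D1:**
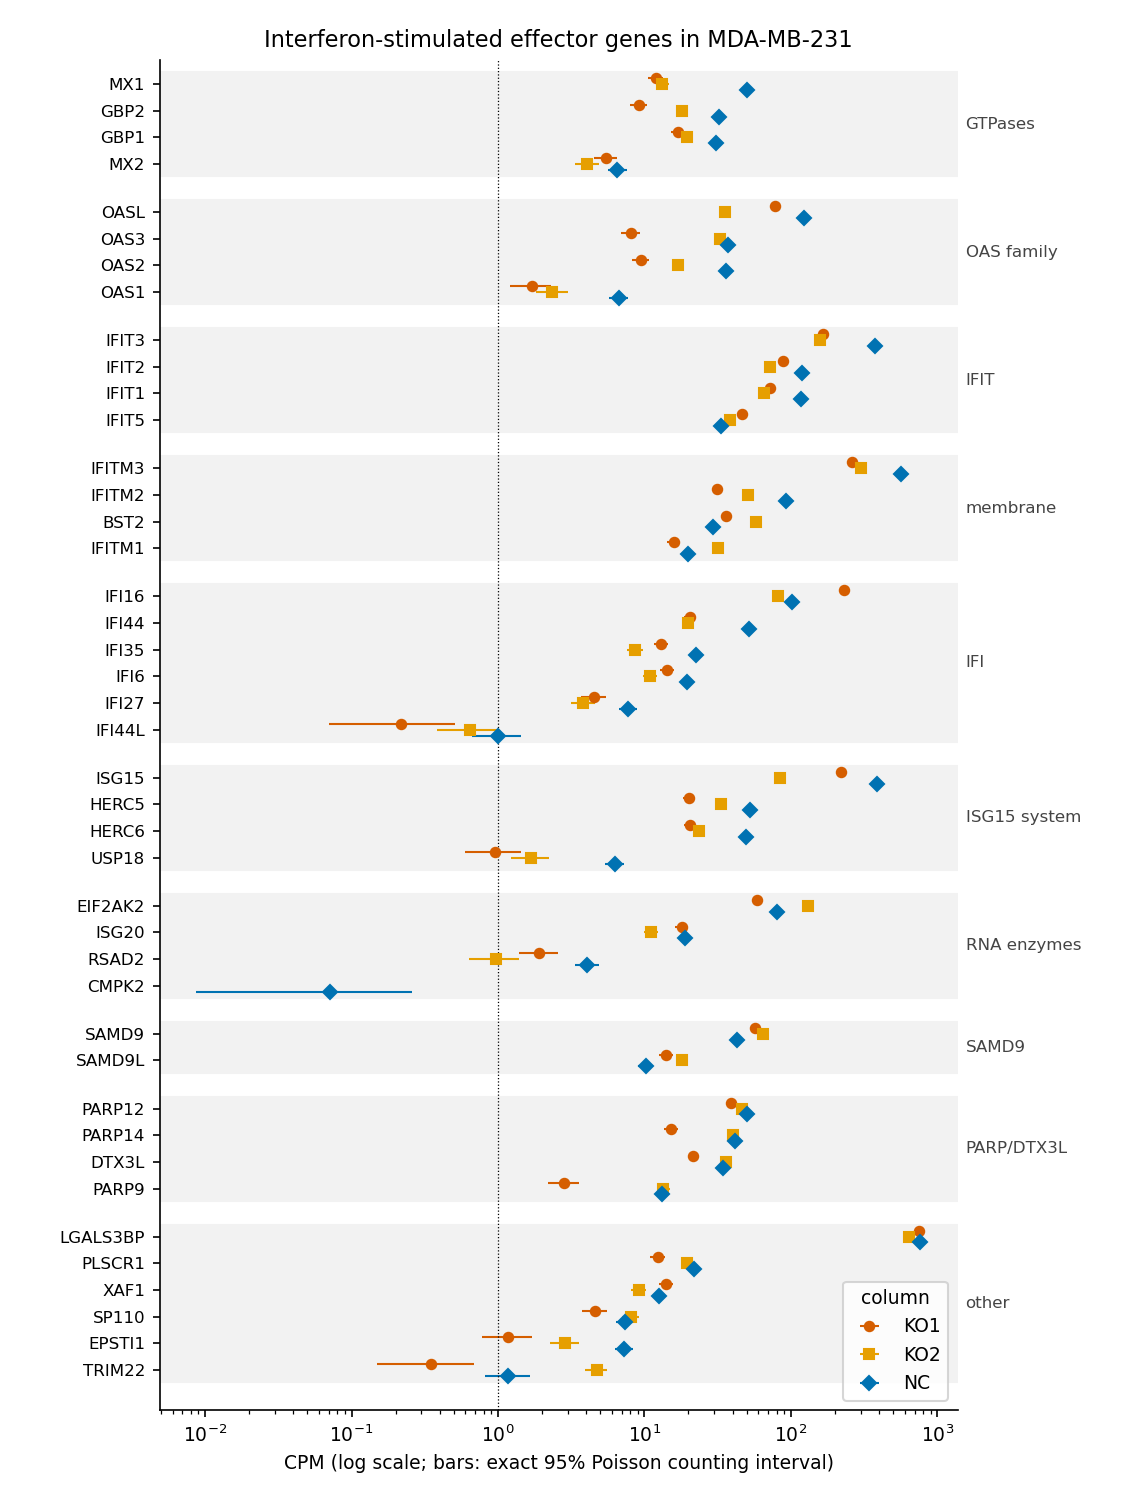
CPM of each effector gene (log scale) in KO1 (red circles), KO2 (orange squares) and NC (blue diamonds), with exact 95% Poisson counting intervals, 1 column per group; the dotted line marks 1 CPM. MX1 stands at 11.96 CPM in KO1 and 13.3 CPM in KO2 against 50.1 CPM in NC, while SAMD9, SAMD9L, BST2 and IFIT5 lie above NC in both knockout columns; zero counts (CMPK2 in KO1 and KO2) have no point.

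**Figure D2:**
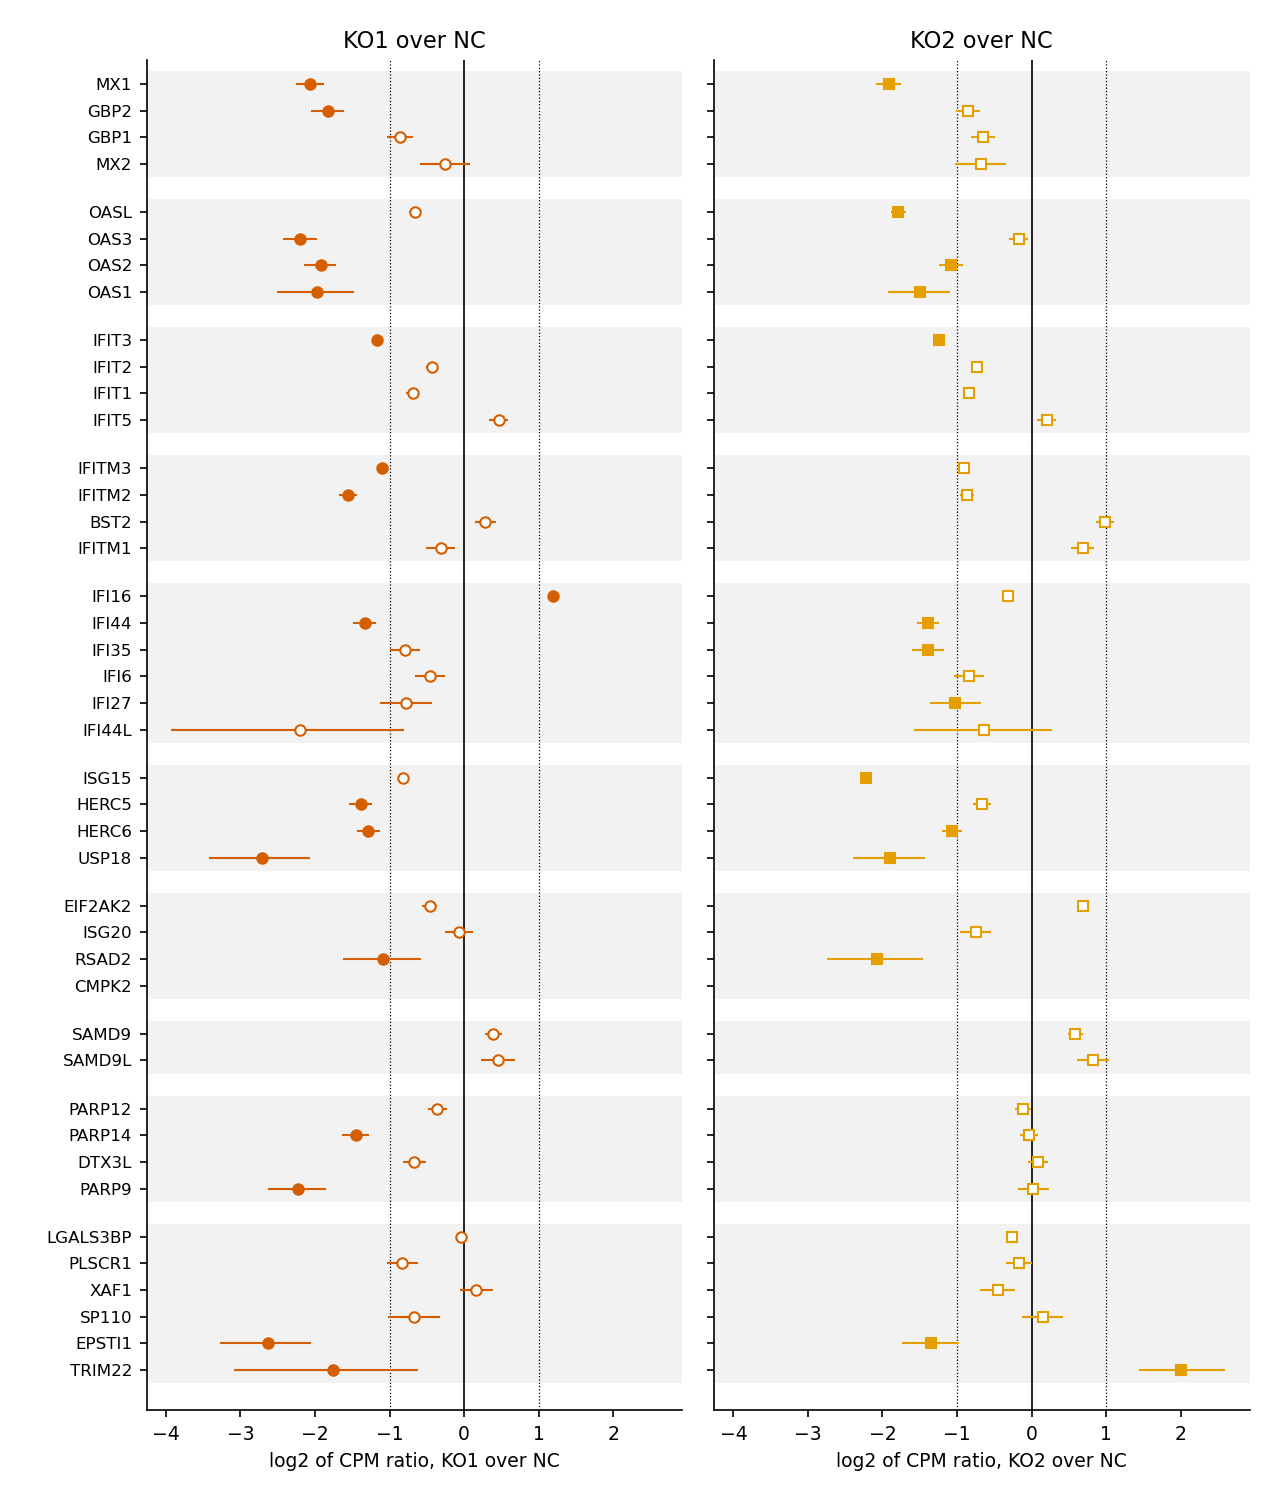
Log2 ratio of CPM for each effector gene, KO1 over NC on the left and KO2 over NC on the right, with exact 95% counting intervals; filled symbols pass the size rule and dotted lines mark a log2 ratio of 1 in either direction. In the left panel 17 filled symbols lie below 0 and 1 above it, and in the right panel 13 lie below and 1 above.

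**Figure D3:**
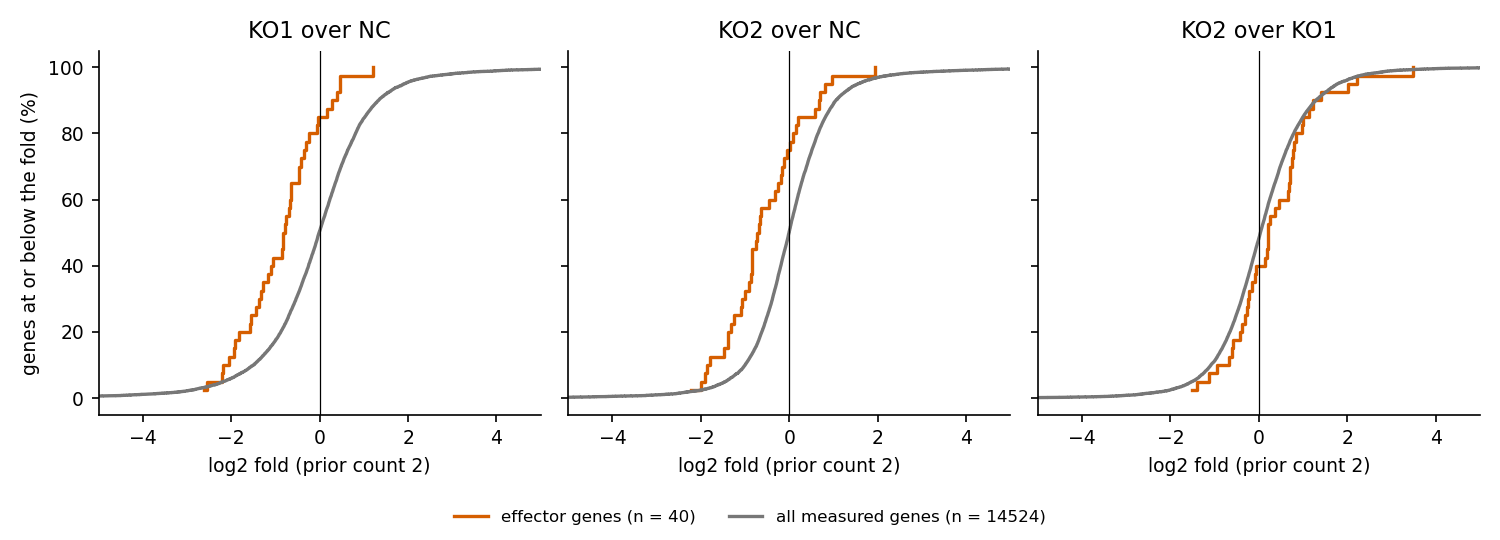
Share of genes (%) at or below each log2 fold, for the 40 measured effector genes and for all 14524 measured genes, in KO1 over NC, KO2 over NC and KO2 over KO1. The effector genes' medians are −0.81, −0.70 and 0.21, and over most of their range the curves lie to the left of all genes in the first pair of panels.

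KO1 and KO2 as 1 group were tested against the single NC column with edgeR's quasi-likelihood test, with Benjamini-Hochberg adjustment over 18289 genes. It called 0 of the 41 effector genes tested and 27 genes of the table (0.148%). At an unadjusted p under 0.05 stood 3 effector genes, MX1, USP18 and IFI44, where 7.7% of all tested genes did. DESeq2, run on the same contrast, called no effector gene, though it called more genes of the table than edgeR did. Its effector genes at that unadjusted level were the same. With 1 residual degree of freedom, these p-values measure the spread between the KO1 and KO2 columns and not between cultures.

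MX1 stood out among the GTPases. It encodes a dynamin-like GTPase that traps incoming viral nucleocapsids, lies at chr21:41420304-41459214 in hg38, and had 275 counts in KO1, 372 in KO2 and 1404 in NC. It was 4.19-fold lower in KO1 (95% counting interval 3.68 to 4.79) and 3.78-fold lower in KO2 (3.37 to 4.24). It had an unadjusted edgeR p of 0.00747, which adjusted to 0.305 over all genes, and the adjusted p lay between 0.141 and 0.347 over the other settings of that test and DESeq2. Its neighbour MX2, which restricts HIV-1 at nuclear import, was at 5.48 CPM in KO1, 4.07 CPM in KO2 and 6.54 CPM in NC, so this pair did not show the same size of difference.

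The guanylate-binding proteins GBP1 and GBP2, GTPases that attack vacuoles of intracellular pathogens and respond strongly to interferon gamma, were also below NC, and of their values only that of GBP2 in KO1 passed the size rule. GBP2 was at 9.17 CPM in KO1, 18.0 CPM in KO2 and 32.6 CPM in NC, with log2 folds of −1.82 and −0.85. GBP1 was at 16.9 CPM in KO1, 19.5 CPM in KO2 and 30.6 CPM in NC. All 4 GTPase genes were below NC in both knockout columns, though MX1 alone passed the size rule in both. For MX2 in KO1 this rests on summed transcripts. Its coding transcript MX2-201 had 115 counts in KO1, 57 in KO2 and 73 in NC.

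The oligoadenylate synthetases make short oligoadenylates on double-stranded RNA, which activate RNase L. OAS2 was at 9.43 CPM in KO1, 16.9 CPM in KO2 and 35.8 CPM in NC, which was 3.80-fold lower in KO1 (3.28 to 4.42) and 2.12-fold lower in KO2 (1.90 to 2.37). OAS1 was at 1.70 CPM in KO1, 2.36 CPM in KO2 and 6.68 CPM in NC, with log2 folds of −1.93 and −1.47. OAS3, between them on chromosome 12, was at 8.09 CPM in KO1 and 33.0 CPM in KO2, against 37.2 CPM in NC. OAS3 thus passed the size rule in KO1 and not in KO2, while OAS1 and OAS2 passed it in both. OASL, which lacks the synthetase activity and binds the RNA sensor RIG-I, had the other order, with 77.5 CPM in KO1, 35.3 CPM in KO2 and 122 CPM in NC.

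Of the IFIT genes, whose proteins bind RNA with foreign ends, IFIT3 differed most. This gene (chr10:89327894-89340971), for a partner that stabilises IFIT1, was at 166 CPM in KO1, 158 CPM in KO2 and 374 CPM in NC, which was 2.25-fold lower in KO1 (2.17 to 2.33) and 2.37-fold lower in KO2 (2.29 to 2.45). IFIT1, which binds RNA lacking a self-type cap, was at 72.4 CPM in KO1, 65.4 CPM in KO2 and 117 CPM in NC. IFIT2 was at 88.8 CPM in KO1, 71.9 CPM in KO2 and 119 CPM in NC. These 3 genes were below NC in both columns. IFIT5, which binds RNA with a triphosphate end, was above NC in both, at 46.2 CPM in KO1, 38.5 CPM in KO2 and 33.5 CPM in NC. LIPA, on the opposite strand over IFIT1, IFIT2 and IFIT3, had 1634 counts in KO1, 3766 in KO2 and 3757 in NC, and the sources used here do not say whether the counting used strand.

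The membrane restriction factors split. IFITM3, which blocks fusion of virus and endosome membranes, was at 264 CPM in KO1, 303 CPM in KO2 and 567 CPM in NC, which was 2.15-fold lower in KO1 (2.09 to 2.21) and 1.87-fold lower in KO2 (1.82 to 1.92). IFITM2 was at 31.5 CPM in KO1, 51.1 CPM in KO2 and 92.9 CPM in NC. IFITM1, which acts at the cell surface, was at 15.9 CPM in KO1, 31.7 CPM in KO2 and 19.7 CPM in NC, so it was not low in KO2. The IFITM genes are close paralogs and IFITM1 and IFITM2 overlap on 1 strand, so the division of fragments among them is uncertain. BST2 (tetherin), which holds budding virions on the cell surface, was above NC in both columns, at 35.9 CPM in KO1, 58.1 CPM in KO2 and 29.5 CPM in NC. Its log2 fold in KO2, 0.98, lay just short of the size rule.

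Among the IFI genes, IFI44 was low in both columns by nearly the same amount. This cytoplasmic protein with a GTP-binding motif was at 20.6 CPM in KO1, 19.8 CPM in KO2 and 51.8 CPM in NC, which was 2.52-fold lower in KO1 (2.27 to 2.80) and 2.62-fold lower in KO2 (2.37 to 2.89), with an unadjusted edgeR p of 0.0429. IFI35, a partner of NMI, was at 13.0 CPM in KO1, 8.604 CPM in KO2 and 22.5 CPM in NC. IFI6 and IFI27, small hydrophobic proteins of internal membranes, were at 14.2 and 4.52 CPM in KO1, 10.9 and 3.82 CPM in KO2, and 19.5 and 7.75 CPM in NC. IFI16, a nuclear sensor of foreign DNA, was the 1 effector gene higher in KO1, at 232 CPM, with 81.3 CPM in KO2 and 101 CPM in NC. IFI16 was 2.29-fold higher in KO1 (2.19 to 2.401), with a log2 fold of −0.31 in KO2.

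All 4 genes of the ISG15 system were below NC in both knockout columns. ISG15 (chr1:1001138-1014541), for a ubiquitin-like modifier that is also secreted, was at 221 CPM in KO1, 83.8 CPM in KO2 and 391 CPM in NC. It was 1.77-fold lower in KO1 (1.71 to 1.83) and 4.67-fold lower in KO2 (4.46 to 4.88), the largest fold below NC in KO2 among the measured effector genes. USP18 (chr22:18149899-18177397), for the protease that removes ISG15 and also dampens signalling at the interferon receptor, had 22 counts in KO1, 47 in KO2 and 176 in NC. It was 6.57-fold lower in KO1 (4.21 to 10.8), the largest in that column, and 3.75-fold lower in KO2 (2.70 to 5.29), with an unadjusted edgeR p of 0.0302 that adjusted to 0.546. HERC5, the main ISG15 ligase of human cells, was at 20.2 CPM in KO1, 33.1 CPM in KO2 and 52.6 CPM in NC. Its relative HERC6 was at 20.4 CPM in KO1, 23.7 CPM in KO2 and 49.7 CPM in NC.

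The nucleotide and RNA enzymes did not move as a group. RSAD2 (viperin), which makes a chain-terminating nucleotide, had 44 counts in KO1, 27 in KO2 and 114 in NC, with log2 folds of −1.06 and −2.00. CMPK2, its mitochondrial nucleotide kinase neighbour, was all but undetected. ISG20, an RNA exonuclease, was at 18.0 CPM in KO1, 11.2 CPM in KO2 and 18.8 CPM in NC. EIF2AK2 (PKR), the kinase that stops translation on double-stranded RNA, was at 58.9 CPM in KO1, 131 CPM in KO2 and 81.1 CPM in NC, below NC in KO1 and above it in KO2. SAMD9 and SAMD9L, neighbouring paralogs that restrict poxviruses and can halt translation, were above NC in both columns. SAMD9 was at 56.7 CPM in KO1, 64.8 CPM in KO2 and 43.1 CPM in NC, and SAMD9L at 14.04 CPM in KO1, 18.1 CPM in KO2 and 10.3 CPM in NC. The SAMD9L excess in KO2 lay on SAMD9L-204, with 0 counts in KO1, 290 in KO2 and 0 in NC. SAMD9L-201 had 323 counts in KO1, 218 in KO2 and 287 in NC, so on it KO2 was below NC.

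PARP9, DTX3L and PARP14 were below NC in KO1 and close to it in KO2. PARP9 and DTX3L form a complex that joins ADP-ribosylation to ubiquitin transfer. PARP9 was at 2.83 CPM in KO1, 13.5 CPM in KO2 and 13.3 CPM in NC, which was 4.69-fold lower in KO1 (3.59 to 6.20). PARP14, a mono-ADP-ribosyltransferase beside them on chromosome 3, was at 15.2 CPM in KO1, 40.5 CPM in KO2 and 41.6 CPM in NC. DTX3L was at 21.6 CPM in KO1, 36.3 CPM in KO2 and 34.2 CPM in NC, and overlaps PARP9 on the opposite strand. PARP12, on chromosome 7, was at 39.3 CPM in KO1, 46.6 CPM in KO2 and 50.4 CPM in NC. Most PARP12 RNA lay on PARP12-207, typed as a retained intron, with 78.0% of its TPM in KO1, 65.5% in KO2 and 72.3% in NC, and on coding transcripts alone its log2 fold in KO2 was 1.30.

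TRIM22 (chr11:5689689-5737089), for an antiviral ubiquitin ligase, was the only effector gene that passed the size rule in opposite directions. It had 8 counts in KO1, 132 in KO2 and 33 in NC, with log2 folds of −1.57 and 1.93. EPSTI1, known from breast cancer cells grown with stroma, had 27 counts in KO1, 80 in KO2 and 204 in NC, which was 6.21-fold lower in KO1 (4.14 to 9.65) and 2.55-fold lower in KO2 (1.96 to 3.35). The abundant secreted glycoprotein gene LGALS3BP was nearly level, at 746 CPM in KO1, 641 CPM in KO2 and 768 CPM in NC. PLSCR1, a phospholipid scramblase, was at 12.3 CPM in KO1, 19.4 CPM in KO2 and 21.8 CPM in NC. The nuclear body gene SP110 was at 4.61 CPM in KO1, 8.10 CPM in KO2 and 7.32 CPM in NC, and XAF1, an antagonist of the apoptosis inhibitor XIAP, at 14.04 CPM in KO1, 9.14 CPM in KO2 and 12.5 CPM in NC. None of LGALS3BP, PLSCR1, SP110 and XAF1 passed the size rule in either column.

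KO2 and KO1 share a genotype label, and their difference was of the same order as that from NC. By the size rule 6 effector genes were higher in KO2 than in KO1 (15.0%, against 14.9% of all measured genes) and 3 were lower (7.5%, against 11.2%), and 16 (40.0%) had a log2 fold below 0, against 48.1%. The list thus differed between these columns about as often as other genes. The higher ones were TRIM22, PARP9, OAS3, PARP14, EPSTI1 and EIF2AK2, with log2 folds from 3.50 to 1.15. The lower ones were IFI16, ISG15 and OASL, with log2 folds of −1.51, −1.40 and −1.13. The median absolute log2 fold of the effector genes was 0.82 in KO1 over NC, 0.83 in KO2 over NC and 0.67 in KO2 over KO1. Unscaled totals moved the median of all genes to 0.30. On them 12 of the 40 measured effector genes were higher in KO2 than in KO1, against 21.5% of all measured genes. On the other side 2 were lower, against 7.27%.

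Per unit of transcript length, a small part of the list held most of its RNA. Summed over the list, TPM (deposited abundance normalized to length and depth) came to 1978.2 in KO1, 2399.1 in KO2 and 4094.8 in NC. In scaled counts the sums were 2410.0 CPM in KO1, 2230.0 CPM in KO2 and 3490.0 CPM in NC, so the order of KO1 and KO2 turns with the unit. In TPM the median log2 fold of all genes was −0.38 in KO1. LGALS3BP, IFITM3 and ISG15 held 67.0% of that sum in KO1, 62.0% in KO2 and 67.8% in NC. IFITM3 had 409 TPM in KO1, 631 TPM in KO2 and 1138 TPM in NC. ISG15 had 383 TPM in KO1, 196 TPM in KO2 and 878.5 TPM in NC. LGALS3BP had 535 TPM in KO1, 661 TPM in KO2 and 760 TPM in NC, so it led the list in KO1 and KO2 while IFITM3 led it in NC. Most LGALS3BP TPM was assigned to LGALS3BP-204, typed as subject to nonsense-mediated decay, with 94.8% in KO1, 85.3% in KO2 and 85.5% in NC. IFIT3 followed in NC at 240.07 TPM, with 82.3 TPM in KO1 and 105 TPM in KO2, and the median over the 42 genes was 8.43 TPM in KO1, 13.2 TPM in KO2 and 18.7 TPM in NC.

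The deposited table is by transcript, and for 15 of the 40 measured genes the transcript with the largest share of the gene's TPM was not the same in all columns. The same count over all measured genes was not made, so whether 15 is many is not known. These shares are estimates of how fragments were divided among overlapping transcripts. For MX1, the leading transcript was MX1-203 in KO1, with 66.2% of the gene's TPM, MX1-202 in KO2, with 55.5%, and MX1-202 in NC, with 43.1%, followed there by MX1-201 with 40.3%. MX1-203 starts in the upstream window printed above, with a match to the ISRE letters, and MX1-202 in the inner window. The inner window holds tttcgtttc and tttcatttc, which those letters cannot match. The low MX1 level in KO1 and KO2 was thus shared by both columns, while the transcript assigned to it was not.

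IFITM1-201 held 0% of IFITM1 in KO1, 0% in KO2 and 82.0% in NC, while IFITM1-202 held 97.8% in KO1, 97.0% in KO2 and 12.8% in NC. The IFITM1 window printed above holds the start of IFITM1-202 and not that of IFITM1-201. Counts assigned to IFITM1-202 were 358 in KO1, 869 in KO2 and 72 in NC, so that on this transcript alone the log2 fold in KO1 was 2.56, against −0.31 for the whole gene. PARP14 was assigned wholly to PARP14-201, a transcript typed as subject to nonsense-mediated decay, in KO1, and at 90.8% in KO2 and 97.9% in NC to the coding PARP14-202. EPSTI1-209, typed as a retained intron, held 100% of EPSTI1 in KO1, 74.8% in KO2 and 0.899% in NC, where the coding EPSTI1-201 led with 61.3%. HERC6-203 held 73.6% in KO1, 4.27% in KO2 and 0% in NC, while HERC6-201 held 13.9% in KO1, 83.6% in KO2 and 94.5% in NC.

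PARP9 had a different leading transcript in each column: PARP9-206, typed as a retained intron, in KO1 (76.7%), PARP9-204 in KO2 (85.6%) and PARP9-201 in NC (54.9%). All TRIM22 counts in KO1 lay on the retained intron form TRIM22-210, which held 22.3% in KO2 and 32.1% in NC. For other genes 1 transcript led throughout. ISG15-201 held at least 99.3% of ISG15 in every column, and IFIT1-201 at least 99.7% of IFIT1. The main transcripts of IFITM3 and IFIT3 also led in every column.

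**Figure D4:**
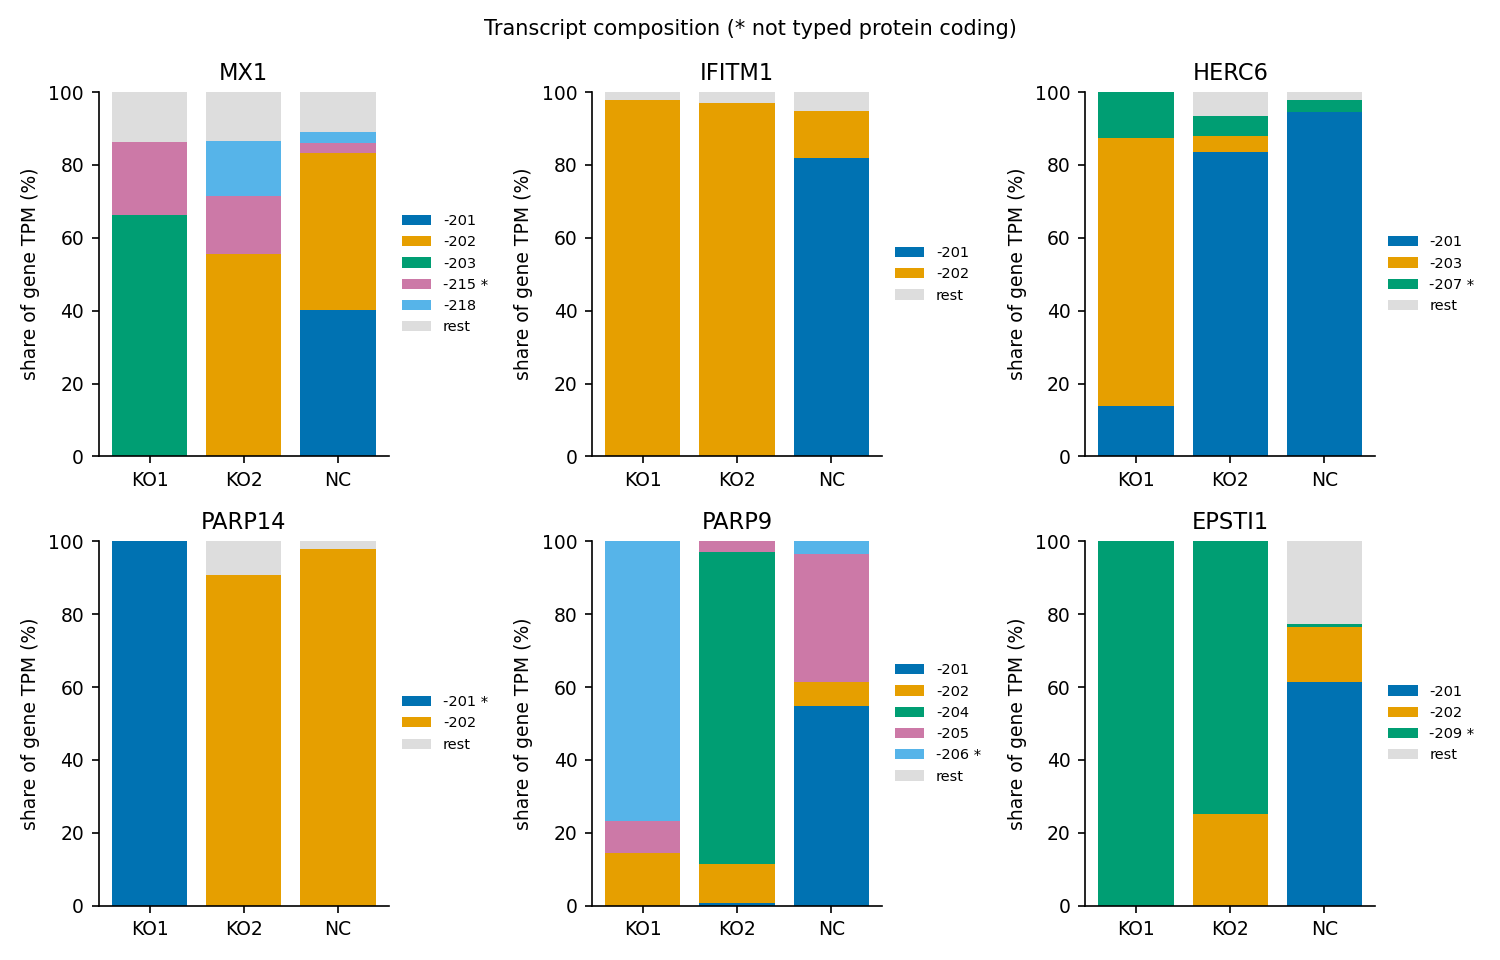
Share of each gene's deposited TPM (%) assigned to each transcript in KO1, KO2 and NC, for 6 genes whose leading transcript differed between columns; transcripts are numbered as in GENCODE 29, grey is the rest, and an asterisk marks types other than protein coding. IFITM1-201 holds none in KO1 or KO2 and 82.0% in NC, and PARP14-201 holds 100% in KO1 and none in KO2 or NC.

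Many effector genes lie beside each other, and 25 of the 42 fall in 10 clusters whose members are within 1 Mb of another. On chromosome 12, OAS1, OAS3 and OAS2 had log2 folds from −2.19 to −1.92 in KO1, and from −1.47 to −0.18 in KO2. On chromosome 3, PARP9, DTX3L and PARP14 ran from −2.20 to −0.66 in KO1 and from −0.04 to 0.09 in KO2. SAMD9 and SAMD9L on chromosome 7 were positive in both columns, from 0.39 to 0.45 in KO1 and from 0.59 to 0.82 in KO2. The median log2 fold of all measured genes on chromosome 7 was itself 0.38 in KO1 and 0.37 in KO2, so in KO1 both lay within 0.07 of it. The medians of chromosomes 12 and 3 lay between −0.03 and 0.08. Other clusters were mixed: on chromosome 10, IFIT5 had log2 folds of 0.46 and 0.20 beside the negative values of IFIT1, IFIT2 and IFIT3, and on chromosome 21 MX1 and MX2 differed by far in size.

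**Figure D5:**
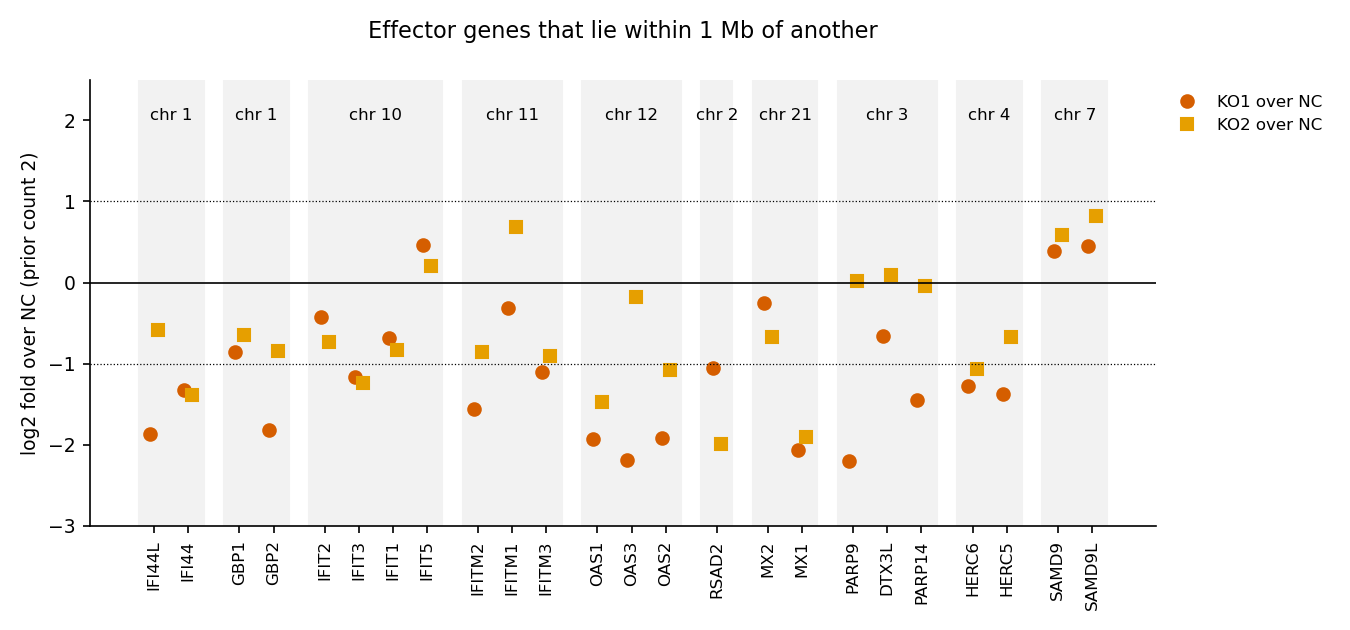
Log2 fold over NC (2 counts added) of effector genes within 1 Mb of another, in chromosome order within each shaded cluster, for KO1 (red circles) and KO2 (orange squares); dotted lines mark a log2 fold of 1 in either direction, and CMPK2, beside RSAD2, is left out for its low count. The PARP9, DTX3L and PARP14 cluster on chromosome 3 lies below 0 in KO1 and between −0.04 and 0.09 in KO2, and SAMD9 and SAMD9L lie above 0 in both.

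The ISRE core described above, on either strand, was in a window of 26 of the 34 genes with a RefSeq promoter (76.5%), against 4.38% of all 27305 genes with one. The GAS core TTCNNNGAA, which reads the same way on both strands and can overlap an ISRE match, was in 10 of the 34 (29.4%), against 9.38%. Counted in each window, 48 ISRE matches, at 43 distinct places in the genome since some windows overlap, lay between positions −196 and 11, counted from a start site at 0. Genes with and without a match were found both above and below NC. Of the 25 measured genes with a match, 10 were lower in KO1 (40.0%) and 7 in KO2 (28.0%), with median log2 folds of −0.82 and −0.65. Of the 7 without, 2 were lower in KO1 (28.6%) and 3 in KO2 (42.9%), with medians of −0.66 and −0.45. Among these, windows of OAS1, IFI16 and XAF1 hold gaaacgaaa and that of IFI35 gaaatgaaa, which the letters used here miss. This split therefore cannot separate genes with the element from genes without it. The shares over all measured genes were 17.4% in KO1 and 9.98% in KO2. OAS1, whose printed window has no match to these letters, was low in both columns. SAMD9, whose window has one, was above NC in both. PARP9 and DTX3L share a match, and PARP9 was 4.69-fold and DTX3L 1.59-fold lower in KO1.

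No interferon gene was measured. Of 21 genes for type I, II and III interferons, 19 had 0 counts in every column, IFNL1 had 11 counts in KO1, 0 in KO2 and 2 in NC, and IFNL2 had 2 counts in KO2 alone. Of 17 receptor, kinase and transcription factor genes, all measured, 2 were lower in KO1 (11.8%, against 17.4% of all measured genes), 1 in KO2 (5.88%, against 9.98%) and 0 in both (against 5.65%), and 2 were higher in both (11.8%, against 6.22%). Those higher in both were IRF9, the DNA-binding part of ISGF3, at 14.7 CPM in KO1, 13.0 CPM in KO2 and 2.25 CPM in NC, and the receptor kinase gene JAK2, at 11.6 CPM in KO1, 16.4 CPM in KO2 and 4.07 CPM in NC. STAT2, named here after its values were seen, was at 57.3 CPM in KO1, 66.1 CPM in KO2 and 52.4 CPM in NC. Of the 17 genes, 9 had a log2 fold below 0 in KO1, where 50.5% of all measured genes did, and 6 in KO2, where 50.4% did. The lowest by mean log2 fold over both knockout columns were IFNLR1 (−1.795), IL10RB (−1.012), IRF2 (−0.965) and IRF7 (−0.602). IRF9 was above NC in both columns and most of the 40 effector genes were below it. The part of these upstream genes in the effector levels was not tested.

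Among 14 nucleic acid sensors and adaptors, 13 were measured, and 3 were lower in both columns (23.1%, against 5.65% of all measured genes). RIGI, the cytoplasmic RNA sensor, was at 34.9 CPM in KO1, 54.8 CPM in KO2 and 151 CPM in NC. DHX58, its regulator LGP2, was at 6.04 CPM in KO1, 7.32 CPM in KO2 and 23.1 CPM in NC. The kinase gene IKBKE was at 30.8 CPM in KO1, 52.0 CPM in KO2 and 111 CPM in NC. All 3 are themselves interferon-stimulated. Of 9 negative regulators of interferon signalling, 2 were lower in KO1 (22.2%, against 17.4%) and 0 in KO2 (against 9.98%). On the other side 2 were higher in KO1 (22.2%, against 15.4%), 1 in KO2 (11.1%, against 11.0%) and 1 in both (11.1%, against 6.22%). The gene higher in both was the phosphatase gene PTPN6, at 1.87 CPM in KO1, 3.43 CPM in KO2 and a low 0.429 CPM in NC.

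A further list of 68 interferon-stimulated genes outside the 42 held genes on both sides of NC. Of 66 measured, 23 were lower in KO1 (34.8%, against 17.4% of all measured genes), 12 in KO2 (18.2%, against 9.98%) and 11 in both (16.7%, against 5.65%). On the other side 5 were higher in KO1 (7.58%, against 15.4%), 6 in KO2 (9.09%, against 11.0%) and 3 in both (4.55%, against 6.22%). The median log2 fold was −0.52 in KO1 and −0.12 in KO2, against −0.81 and −0.70 for the effector genes. This list shares genes with the lists above, RIGI, STAT2 and IRF9 among them. The guanylate-binding protein gene GBP5 was at 4.999 CPM in KO1, 1.46 CPM in KO2 and 37.5 CPM in NC, and the lysosomal thiol reductase gene IFI30 at 2.13 CPM in KO1, 14.4 CPM in KO2 and 54.0 CPM in NC. CD274 (PD-L1) and HLA-C were higher in both columns. CD274 was at 74.0 CPM in KO1, 44.8 CPM in KO2 and 9.14 CPM in NC, and HLA-C at 221 CPM in KO1, 144 CPM in KO2 and 46.5 CPM in NC, though on its leading transcript alone HLA-C had a log2 fold of −0.91 in KO2.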

How the data were processed

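RNA-seq of MDA-MB-231 cells was deposited as 1 table of 199167 transcripts of 58174 gene IDs, with counts, TPM and FPKM for KO1, KO2 and NC. GEO lists 2 samples per group, but there is 1 column per group, with no replicate number, and whether it is 1 library or both combined is not stated. The Count columns were read as the authors' expected counts, rounded up, since 98.9% to 99.0% of low values lay 0 to 1 above the count implied by FPKM (tolerance 0.05). Per the file headers, the authors also deposited TPM and FPKM, each normalized to length and depth. FPKM was used for that check only. The submitters' processing notes name CASAVA, Bowtie2, featureCounts and hg38, and the tool that estimated transcript values is not given in the sources used here. Per the labels, the RNA was extracted with Trizol and the libraries came from a stranded total RNA kit.

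Counts were summed per gene and scaled by TMM (edgeR 4.0.16, R 4.3.3). The planned fit over 3 groups could not be run with 1 column each. A size rule took its place: log2 fold (prior count 2) of at least 1 in size, an exact 95% Clopper-Pearson interval without a fold of 1, and a mean of at least 1 CPM. The two-sided quasi-likelihood test of edgeR (robust, after filterByExpr, adjusted p under 0.05) compared KO1 and KO2 as 1 group with NC, leaving 1 residual degree of freedom. The fits and the rule were tested on simulated data. Transcript names and types are those of GENCODE release 29, and promoters those of RefSeq (GRCh38.p14). Intervals cover counting error only, since reads without molecular identifiers are not independent molecules. The effector genes and the other lists were chosen with earlier results of these data known. The rule for named genes allowed all 42 effector genes, up to 4 measured genes per direction of each other list by mean log2 fold over both knockout columns, and ARID1A. Alternatives covered scaling, filters, prior count, fold size, unit, transcripts summed and the test. Results for some genes are not reported here.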

Additional observations from a re-analysis of the deposited data

Results flagged for a closer look

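TRIM22 was singled out because the KO1 and KO2 columns, which share a genotype label, moved in opposite directions from NC. Its log2 fold was −1.57 in KO1 over NC and 1.93 in KO2 over NC, on 8 counts in KO1, 132 in KO2 and 33 in NC. The difference was not tested, since each group has 1 column. TRIM5, on the opposite strand over TRIM22, had 135 counts in KO1, 106 in KO2 and 190 in NC, and its part in the result was not tested.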

How the results depend on the processing

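No paired analysis was possible because the columns carry no replicate number, and leaving out a column leaves no residual degrees of freedom, so neither a replicate block nor a left-out replicate could be fitted. DESeq2 size factors, TMM without mitochondrial genes, a prior count of 0.5 and no filter on low values left every count of effector genes by the size rule within 1.5 times its value in the report. Shares in parentheses are those of all measured genes under the same setting. Without scaling (total counts), 0 were higher in KO1 (11.3%), 2 higher in KO2 (11.8%) and 12 higher in KO2 than in KO1 (21.5%). That setting moved the median log2 fold of all genes to −0.24 in KO1. At a mean of at least 5 CPM, 35 genes were measured, 5 were lower in both columns (4.25%) and 0 higher in KO2 (8.95%). In deposited TPM, where the median of all genes was −0.38 in KO1, 27 were lower (26.5%) and 0 higher (9.75%) in KO1, 3 higher in KO2 (12.3%), 17 higher (26.5%) and 1 lower (6.06%) in KO2 than in KO1, with a median KO2 over KO1 of 0.71. At a fold of at least 1.5, 26 were lower in KO1 (28.0%), 23 in KO2 (21.0%) and 19 in both (12.3%), 6 were higher in KO2 (22.1%), and between KO2 and KO1 16 were higher (26.0%) and 7 lower (21.9%). At a fold of at least 4, 5 were lower in KO1 (5.96%), 1 in KO2 (2.4%) and 0 in both (1.47%), 0 were higher in KO1 (4.47%) or KO2 (3.05%), and between KO2 and KO1 3 were higher (3.85%) and 0 lower (2.48%).

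With the leading transcript alone, 2 genes were higher in KO1 (21.0%), 3 in KO2 (15.8%) and 1 in both (9.57%), and between KO2 and KO1 10 were higher (20.5%) and 6 lower (17.8%). Sign changes of named genes are listed only where the fold of the whole gene or of the leading transcript passed the size rule. These were IFITM1 in KO1 (2.56), ISG20 in KO2 over KO1 (1.14), HLA-C in KO2 (−0.91) and ARID1A in KO1 (1.40). Smaller folds changed sign too, as for SAMD9L in KO2, with 218 counts on SAMD9L-201 against 287 in NC. With coding transcripts alone, an alternative chosen after seeing the data that moved the median of all genes to −0.11 in KO1, 2 were higher in KO2 (11.8%) and 6 lower in KO2 than in KO1 (11.3%), and PARP12 was at 1.30 in KO2. Beyond fewer genes or a different threshold, the cause was not tested. Of the 9 genes lower in both columns, 9 kept that call under each other scaling, 7 in TPM, 8 with the leading transcript (OAS2 lost) and 8 with coding transcripts (RSAD2 lost). The edgeR test without robust estimation, also chosen after seeing the data, and every planned setting of the test called no effector gene. How many genes of the whole table were called differed widely between these settings. Without the filter on low counts, EPSTI1, IFIT3, ISG15 and OAS2 also stood at an unadjusted edgeR p under 0.05. More genes of the whole table stood there too, from a larger set tested, and the shares under that setting were not compared. USP18, RSAD2, TRIM22, OAS1 and EPSTI1 rest on few counts, and differences within their intervals were not detectable at this depth.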
